A study of Homo sapiens with 8 samples.

Results

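Heme is built in 8 steps, of which the first and the last 3 take place in mitochondria and the others in the cytosol. Aminolevulinate synthase starts the pathway and sets its rate: ALAS1 is the housekeeping form found in all tissues, and ALAS2 is the erythroid form, encoded on the X chromosome. ALAD joins aminolevulinate molecules into porphobilinogen, UROS closes the tetrapyrrole ring, UROD and CPOX trim its side chains, PPOX oxidises it, and FECH inserts iron. The genes described here are 7 of these enzymes (ALAS1, ALAS2, ALAD, UROS, UROD, CPOX and FECH), of 23495 genes in the deposited transcript lists, and PPOX is described with the other genes of heme metabolism. The transcripts followed were those whose gene identifier in any of the 8 lists is one of these names. For ALAS2 and UROD, which no list names, they were found through their RefSeq transcripts. Assembled spliced transcripts that share introns with these were added. Between 12 and 17 such transcripts were followed per library.

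The libraries are RNA sequencing of K562, a human erythroleukaemia line that makes embryonic and fetal globin. A transgene under doxycycline control encoded SF3B1, the splicing factor that helps select the branch point and so the 3′ splice site. No label names a change to the line's own SF3B1 gene. The 4 groups of 2 libraries were K700E_induced (SF3B1-K700E transgene, 1 ug/ml doxycycline for 48 h), K700E_uninduced (the same transgene without induction), WT_induced (SF3B1-WT transgene with the same doxycycline) and WT_uninduced. K700E is the substitution most often found in myelodysplastic syndromes with ring sideroblasts, in which iron collects in erythroid mitochondria. Whether each transgenic line is 1 clone is not stated in the sources used here, nor is the origin of the replicates, so the p-values here reflect the spread among these libraries only and that spread may be technical.

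The gene identifiers in the lists name ALAS1 in 6 of the 8 libraries, CPOX in 5 and ALAD, UROS and FECH in 7. ALAS2 and UROD were named in 0 of the 8 and were found through their RefSeq transcripts. On hg19, the build of the lists, ALAS1 lies at chr3:52232099-52248343, ALAS2 at chrX:55035488-55057497, ALAD at chr9:116148592-116163618, UROS at chr10:127477147-127511837, UROD at chr1:45477805-45481341, CPOX at chr3:98298290-98312455 and FECH at chr18:55212073-55253969. ALAD and UROS each have an erythroid form with its own first exon in the literature. The lists hold 1 reference transcript for each of these genes, NM_000031 and NM_000375, and 1 start site, so the housekeeping and erythroid forms of ALAD and UROS are not separated here. Across the 7 genes no reference transcripts of a gene differ in their start, and the forms that can be followed differ in internal exons and splice sites.

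These sequences carry the forms that differed between libraries. They are the sense strand of GENCODE v29 transcripts on GRCh38, 20 bases of the flanking exon in lower case on each side, and the variable bases in capitals. The ALAS2 exon is coding, 111 nt long and on the minus strand (GRCh38 chrX:55023757-55023867). The UROD bases are the 50 nt between the 2 acceptors of the first intron, on the plus strand (GRCh38 chr1:45012857-45012906). The FECH bases are the 18 nt between the 2 donors of the second intron, on the minus strand (GRCh38 chr18:57580055-57580072).
ALAS2 exon: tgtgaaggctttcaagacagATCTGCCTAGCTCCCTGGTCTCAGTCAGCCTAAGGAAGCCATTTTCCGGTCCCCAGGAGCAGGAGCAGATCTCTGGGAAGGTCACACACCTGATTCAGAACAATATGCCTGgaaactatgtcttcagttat
UROD extension: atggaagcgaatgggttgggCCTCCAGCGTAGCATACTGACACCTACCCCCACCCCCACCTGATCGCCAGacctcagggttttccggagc
FECH extension: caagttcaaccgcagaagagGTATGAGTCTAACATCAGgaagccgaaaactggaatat

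The promoters of the 2 synthases are shown because ALAS2 and ALAS1 are the erythroid and the housekeeping gene for the same step. RefSeq's promoter table (GRCh38.p14) held entries for 6 of the 7 genes, and the 250 bases before each start were searched for AGATAA or TGATAA or AGATAG or TGATAG, the letters bound by GATA factors, on both strands (capitals below). Of 35116 promoters in the table, 22.3% hold at least 1 match in that window. ALAS2 has 1 match, CPOX has 2, 1 of the 2 ALAD starts has 1, and ALAS1, UROD and FECH have 0. The GC box letters GGGCGG, on either strand, are present in 42.6% of all promoters, with 0 matches in ALAS2, 2 in ALAS1, 2 and 3 in the ALAD starts, 1 in UROD, 3 in CPOX and 2 in FECH. The windows of the 2 ALAD starts overlap. The starts are those of the promoter table and were not matched to the transcript starts of the lists. A window can therefore reach into a listed first exon. A match describes letters only, not binding.
ALAS2, GRCh38 chrX:55030978-55031227, minus strand: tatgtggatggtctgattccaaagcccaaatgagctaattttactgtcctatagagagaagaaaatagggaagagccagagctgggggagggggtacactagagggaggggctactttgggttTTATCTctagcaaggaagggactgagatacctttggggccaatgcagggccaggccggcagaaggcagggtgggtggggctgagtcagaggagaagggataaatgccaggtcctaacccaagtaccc
ALAS1, GRCh38 chr3:52197833-52198082, plus strand: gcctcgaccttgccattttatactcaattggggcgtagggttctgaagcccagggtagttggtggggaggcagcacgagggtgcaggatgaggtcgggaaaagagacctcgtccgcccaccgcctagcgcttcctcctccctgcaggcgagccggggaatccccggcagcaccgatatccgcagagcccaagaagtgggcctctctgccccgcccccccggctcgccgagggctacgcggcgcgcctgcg

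Levels are FPKM (fragments per kilobase of transcript, scaled to the mapped total) as deposited, summed over the transcripts of a gene, so genes can be compared per length. The lists do not separate the transgene from the line's own SF3B1. SF3B1 was at 28.98 and 39.5 FPKM in K700E_induced, 34.6 and 30.4 in K700E_uninduced, 36.6 and 27.3 in WT_induced and 37.7 and 31.7 in WT_uninduced. The induced and uninduced ranges overlap in both lines, so the labels are not checked by SF3B1, and "induced" names the label. The 8 erythroid markers all averaged 1 FPKM or more, with summed scaled levels between 3588 and 8609 FPKM. The megakaryocytic markers PF4 and GP9 and the myeloid markers MPO and CD14 were at 0 in all 8 libraries. Other markers of these lists were above 0 in all 8, with ITGA2B at 7.11 to 39.4 scaled FPKM, CD68 at 3.26 to 34.99 and LYZ at 6.51 to 24.97. The mean r over 8772 genes was 0.842 between libraries of the same group and 0.839 between libraries of different groups. In these bulk samples fewer cells expressing a gene and less RNA per cell cannot be told apart.

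ALAS2 was the more abundant aminolevulinate synthase in 8 of 8 libraries. ALAS1 was at 8.41 and 5.55 FPKM in K700E_induced, 12.2 and 8.70 in K700E_uninduced, 2.87 and 5.70 in WT_induced and 5.42 and 10.4 in WT_uninduced (mean 7.40 ± 3.05, SD, n = 8). ALAS2 was at 43.8 and 64.5 FPKM in K700E_induced, 29.6 and 45.6 in K700E_uninduced, 17.6 and 27.4 in WT_induced and 28.4 and 16.6 in WT_uninduced (mean 34.2 ± 16.1, SD, n = 8). The 4 K700E-line libraries held the 4 highest ALAS2 values, and the ALAS1 values of the lines overlapped. The deposited ALAS2 level was between 1.60-fold (WT_uninduced replicate 2) and 11.6-fold (K700E_induced replicate 2) that of ALAS1. As a log2 ratio of scaled FPKM + 0.5, ALAS2 to ALAS1 averaged 2.33 ± 0.89 (SD, n = 4) in the K700E line and 1.89 ± 0.83 (SD, n = 4) in the WT line. The difference of 0.44 was within the spread (exact permutation test, two-sided, p = 0.429, smallest possible p 0.0286 over 70 assignments). It was 0.03 without WT_uninduced replicate 2, 0.075 without K700E_induced replicate 2, 0.80 without K700E_uninduced replicate 1 and 1.62 (exact p = 0.229) with reference transcripts only.

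ALAD was the least even of the 7 genes. It was at 4.33 and 32.6 FPKM in K700E_induced, 3.24 and 3.50 in K700E_uninduced, 4.78 and 0.0151 in WT_induced and 2.66 and 0.764 in WT_uninduced. One library, K700E_induced replicate 2, exceeded all others, and WT_induced replicate 2 was close to 0 (coefficient of variation 165%, n = 8). UROS, which forms uroporphyrinogen III, was at 28.6 and 31.8 FPKM in K700E_induced, 28.9 and 50.4 in K700E_uninduced, 11.0 and 29.6 in WT_induced and 21.3 and 24.7 in WT_uninduced. Its lowest value came from WT_induced replicate 1 and its highest from K700E_uninduced replicate 2, with overlap between the lines.

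UROD, the cytosolic decarboxylase, was the most abundant of the 7 in 8 of 8 libraries and made up 64.8% to 81.4% of their summed FPKM. It was at 334 and 347 FPKM in K700E_induced, 320 and 357 in K700E_uninduced, 305 and 166 in WT_induced and 301 and 293 in WT_uninduced (mean 303 ± 59.8, SD, n = 8). All but WT_induced replicate 2 lay within 293 to 357 FPKM, which makes UROD the least variable of the 7 (coefficient of variation 19.8%).

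CPOX acts in the mitochondrial intermembrane space. It was at 14.5 and 18.8 FPKM in K700E_induced, 14.2 and 6.59 in K700E_uninduced, 23.7 and 21.6 in WT_induced and 15.5 and 28.0 in WT_uninduced. Its order across the lines was the opposite of that of ALAS2: 3 of the 4 WT-line values exceeded every K700E-line value. FECH, the ferrochelatase of the inner membrane, was at 14.8 and 11.6 FPKM in K700E_induced, 31.7 and 10.3 in K700E_uninduced, 9.91 and 5.69 in WT_induced and 4.75 and 10.9 in WT_uninduced. FECH in K700E_uninduced replicate 1 stood above the other 7 libraries, which ranged from 4.75 to 14.8 FPKM.

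**Figure D1:**
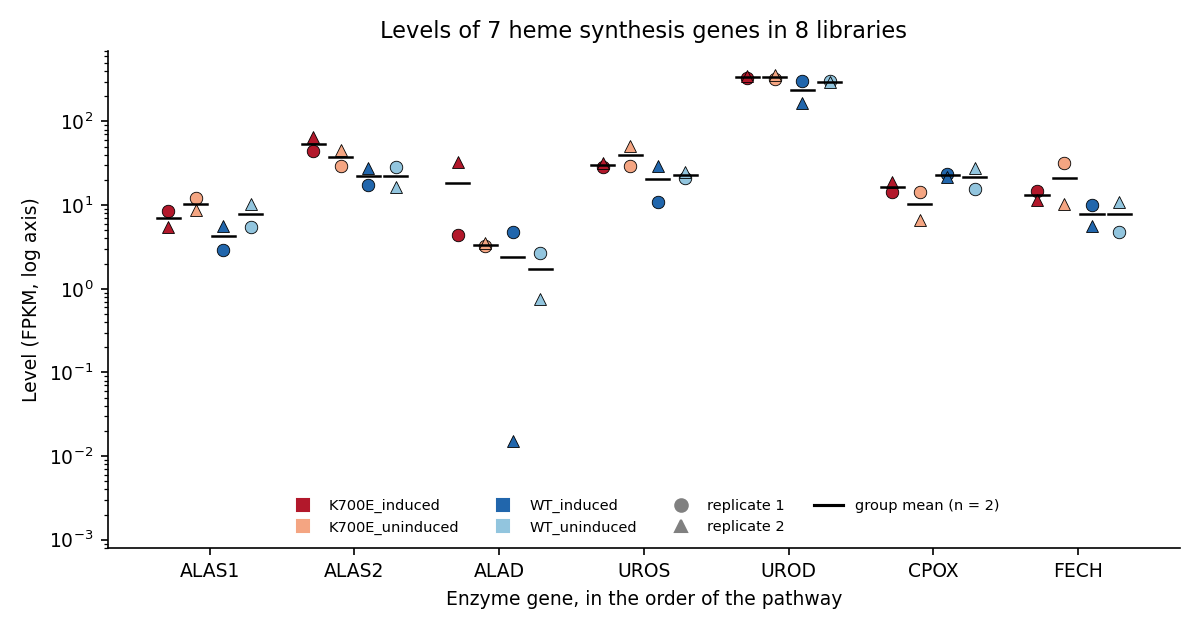
Levels of the 7 enzyme genes in FPKM (log axis), in pathway order, for the 2 libraries of each group (circle, replicate 1; triangle, replicate 2), with a bar at each group mean. UROD lies above 100 FPKM in all 8 libraries, ALAS2 is highest in the K700E groups, and ALAD spans from 0.0151 to 32.6 FPKM.

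By mean FPKM over the 8 libraries the order was UROD (303), ALAS2 (34.2), UROS (28.3), CPOX (17.9), FECH (12.5), ALAS1 (7.40) and ALAD (6.48). Neighbours in this order were compared within libraries by an exact paired sign-flip permutation test, two-sided, with Benjamini-Hochberg adjustment over the 6 pairs. The order, and so the pairs and their direction, came from the same 8 libraries, and the adjustment does not allow for that choice. UROD exceeded ALAS2 by 3.23 log2 units (SD 0.63, n = 8, exact p = 0.00781, the smallest possible, adjusted p = 0.0469). The other 5 pairs did not pass. FECH exceeded ALAS1 in 6 of 8 libraries (adjusted p = 0.141), UROS exceeded CPOX in 6 (adjusted p = 0.206), CPOX exceeded FECH in 5 (adjusted p = 0.206), ALAS1 exceeded ALAD in 6 (adjusted p = 0.206) and ALAS2 exceeded UROS in 5 (adjusted p = 0.266), by the same exact test. With 7 libraries 1 pair alone cannot pass after adjustment, even at the smallest possible p. The count of pairs past the threshold was 0 without any 1 library. The rank of UROD was always 1, ALAS2 and UROS ranked between 2 and 4, and CPOX and FECH between 2 and 6.

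Differences between groups were read from limma fits over 11364 genes with a mean of 1 FPKM or more, on the scale log2(scaled FPKM + 0.5), with Benjamini-Hochberg adjusted p-values and a threshold of 0.05. All 7 enzyme genes were tested, and 0 of them passed in any of the 7 comparisons. Few genes of any kind passed. The share called was 0.0088% in K700E_induced against K700E_uninduced, 0.0088% in WT_induced against WT_uninduced, 0.0264% in K700E_induced against WT_induced, 0% in K700E_uninduced against WT_uninduced (526 genes had an unadjusted p under 0.05), 0.0176% for the interaction, 0.044% between lines and 0.0176% for doxycycline. The fold changes below are therefore estimates with their errors, and none is called.

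K700E_induced against K700E_uninduced compares, by the labels, the mutant transgene with and without doxycycline. SF3B1 differed by 0.06 log2 units (SE 0.37), so its induction is not seen in the levels. Here 4 of the 7 enzymes had estimates above 0, with a median of 0.02 log2 units. Over all genes 49.4% were above 0, with a median of -0.01. The libraries of the 2 groups did not overlap for 3 enzymes. CPOX and ALAD were higher in both induced libraries, which holds for 16.1% of all genes, and ALAS1 was lower in both, which holds for 17.8%. The nearest CPOX values were 14.5 (K700E_induced replicate 1) and 14.2 deposited FPKM (K700E_uninduced replicate 1). With reference transcripts only the CPOX groups overlapped, at 10.9 in K700E_induced replicate 2 against 14.2 in K700E_uninduced replicate 1. The ALAS1 estimate was -0.56 (SE 0.67), the CPOX estimate 0.74 (SE 0.53) and the ALAS2 estimate 0.53 (SE 0.47), each with a limma adjusted p of 1. Without any 1 library they ranged from -0.84 to -0.27, from 0.25 to 1.23 and from 0.19 to 0.87, and with reference transcripts only ALAS1 was at -2.63. The ALAD estimate was 1.71 (SE 1.36), and without K700E_induced replicate 2 it was 0.32. FECH (-0.45, SE 0.70) became 0.30 without K700E_uninduced replicate 1. UROS (-0.33, SE 0.54) became 0.10 without K700E_uninduced replicate 2. UROD differed by 0.02 (SE 0.31, 95% interval -0.70 to 0.73), which became -0.01 without K700E_induced replicate 2 and -0.10 without K700E_uninduced replicate 1. The 5 myeloid markers summed to 10.8 and 12.2 scaled FPKM in K700E_induced and to between 35.1 and 59.8 in the other 6 libraries, from CD68 and LYZ, with MPO and CD14 at 0 everywhere. The 4 megakaryocytic markers summed to 9.99 and 11.6 in K700E_induced and 28.8 and 16.4 in K700E_uninduced, nearly all from ITGA2B. The 6 stromal and epithelial markers, mainly KRT8, KRT18 and VIM, summed to 741 and 661 in K700E_induced and to 1450 and 1170 in K700E_uninduced, above the range of 527 to 860 in the other 6 libraries. The part of these markers in the enzyme values was not tested.

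WT_induced against WT_uninduced compares, by the labels, the wild-type transgene with and without doxycycline. SF3B1 differed by -0.13 log2 units (SE 0.37), so the levels show no extra SF3B1. Here 3 of the 7 enzymes had estimates above 0 (50.4% of all genes), with a median of -0.28 log2 units against 0.01 over all genes. The groups overlapped for all 7. The share of all genes without overlap was not counted for this comparison. On K700E induction it was 16.1% higher and 17.8% lower in the induced libraries. ALAS2 differed by 0.01 (SE 0.47) and ALAS1 by -0.81 (SE 0.67; -1.25 to -0.38 without any 1 library). ALAD differed by -0.28 (SE 1.36), UROS by -0.34 (SE 0.54), UROD by -0.40 (SE 0.31), CPOX by 0.11 (SE 0.53) and FECH by 0.05 (SE 0.70). Each of these but ALAS1 changed sign when 1 library was left out: ALAS2 without WT_induced replicate 2 or WT_uninduced replicate 2, ALAD without WT_induced replicate 2 or WT_uninduced replicate 1, UROS without WT_induced replicate 1, UROD without WT_induced replicate 2, CPOX without WT_uninduced replicate 1, and FECH without WT_induced replicate 1 or WT_uninduced replicate 1. The limma adjusted p-values were 0.997 to 1. The interaction, which tests whether induction acts differently in the lines, was above 0 for 6 of the 7 enzymes (47.9% of all genes), UROS among them at 0.0042 but at -0.0026 without scaling, with adjusted p-values of 0.999. It was 0.52 (SE 0.66; 0.13 to 0.90 without any 1 library) for ALAS2 and -0.50 (SE 0.99) for FECH. Doxycycline against none, averaged over the lines, was above 0 for 3 of the 7 (49.9% of all genes), with adjusted p-values from 0.958 to 0.991, and ALAS1 had the lowest estimate, -0.69 (SE 0.47; -1.72 with reference transcripts only).

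In K700E_induced against WT_induced, 6 of the 7 enzymes had estimates above 0 (50.4% of all genes), with a median of 0.72 log2 units. The groups did not overlap for ALAS2, UROD and FECH, all higher in K700E_induced (16.3% of all genes), and for CPOX, lower in K700E_induced (16.6% of all genes). ALAS2 was 1.25 log2 units higher (SE 0.47, 95% interval 0.18 to 2.32, unadjusted p = 0.0277, limma adjusted p = 0.924). UROD was estimated at 0.59 (SE 0.31), FECH at 0.76 (SE 0.70), ALAS1 at 0.68 (SE 0.67), UROS at 0.72 (SE 0.54) and CPOX at -0.45 (SE 0.53). The ALAD estimate of 2.93 (SE 1.36) rests on a WT_induced library near 0 and on K700E_induced replicate 2, at 32.6 FPKM against 4.33 in replicate 1. It was 1.25 without WT_induced replicate 2 and ranged from 1.25 to 4.61 without any 1 library. The UROS estimate was 0.03 without WT_induced replicate 1. Without any 1 library UROD ranged from 0.15 to 1.04, FECH from 0.37 to 1.14, ALAS1 from 0.25 to 1.11 and CPOX from -0.63 to -0.26. With reference transcripts only ALAS1 was at -1.40 and CPOX at 0.16, so both changed sign. The UROD and CPOX values of the groups then overlapped. The myeloid markers summed to 35.8 and 53.8 scaled FPKM in WT_induced, against the lower sums in K700E_induced given above, and their part was not tested.

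The uninduced lines share no library with the comparison of the induced lines. In K700E_uninduced against WT_uninduced 6 of the 7 enzymes were above 0 (51.6% of all genes), with a median of 0.71 log2 units against 0.02 over all genes. The groups did not overlap for ALAS2, ALAD, UROS and UROD, higher in K700E_uninduced (16.9% of all genes), and for CPOX, lower (15.7% of all genes). For ALAS2 the closest deposited values were 29.6 FPKM in K700E_uninduced replicate 1 and 28.4 in WT_uninduced replicate 1. Scaling divides them by 1.03 and 0.990 and brings them closer still. They differ by less than the median half-width of 10.4% of the deposited intervals of ALAS2 transcripts. ALAS2 was estimated at 0.73 (SE 0.47), FECH at 1.26 (SE 0.70), ALAD at 0.94 (SE 1.36), UROS at 0.71 (SE 0.54), UROD at 0.17 (SE 0.31), ALAS1 at 0.42 (SE 0.67) and CPOX at -1.08 (SE 0.53), with limma adjusted p-values of 0.97 to 0.988. The ALAS1 estimate was -0.01 without WT_uninduced replicate 1. Without any 1 library ALAS2 ranged from 0.35 to 1.12, FECH from 0.51 to 2.01, ALAD from 0.28 to 1.61, UROS from 0.28 to 1.14, UROD from 0.06 to 0.29 and CPOX from -1.57 to -0.59. With reference transcripts only FECH was at -0.091. The stromal and epithelial markers summed to 860 and 556 scaled FPKM in WT_uninduced, against the higher sums in K700E_uninduced given above, and their part was not tested.

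Across both conditions, K700E line against WT line, 4 libraries against 4, ALAS2 averaged 45.9 ± 14.3 FPKM (SD, n = 4) in the K700E line and 22.5 ± 6.25 (SD, n = 4) in the WT line. The log2 difference was 0.99 (SE 0.33, 95% interval 0.23 to 1.75, unadjusted p = 0.0168, limma adjusted p = 0.789), with 4 of 4 K700E-line libraries above 4 of 4 WT-line libraries, the nearest being the replicate 1 libraries of the uninduced groups given above. UROD averaged 340 ± 16.1 and 266 ± 67.1 FPKM (SD, n = 4 each), also without overlap, with a log2 difference of 0.38 (SE 0.22, adjusted p = 0.897) that was 0.16 without WT_induced replicate 2. These 2 of 7 enzymes compare with 1.8% of all genes whose K700E-line libraries all lie above the WT-line libraries. For UROD the nearest deposited values were 320 FPKM in K700E_uninduced replicate 1 and 305 in WT_induced replicate 1. Scaling divides these by 1.03 and 0.991 and brings them closer still. They differ by less than the median half-width of 5.13% of the deposited intervals of UROD transcripts. With reference transcripts only the UROD values of the lines overlapped, with a lowest K700E-line value of 191 FPKM and a highest WT-line value of 293. In all, 6 of 7 estimates were above 0 (51.4% of all genes), with a median of 0.72 against 0.02, and 1 of 7, ALAS2, had an unadjusted p under 0.05, as did 658 of 11364 genes. FECH was at 1.01 (SE 0.50), UROS at 0.72 (SE 0.38), ALAD at 1.94 (SE 0.96), ALAS1 at 0.55 (SE 0.47) and CPOX at -0.76 (SE 0.37), with limma adjusted p-values of 0.872 to 0.9. Without any 1 library FECH ranged from 0.63 to 1.38, UROS from 0.37 to 1.06, ALAD from 1.09 to 2.78 and ALAS1 from 0.33 to 0.76. With reference transcripts alone ALAS1 was -0.49, FECH 0.33 and CPOX -0.46. The summed erythroid markers were 4138, 6929, 4822 and 8609 scaled FPKM in the K700E line and 4629, 3588, 5021 and 3919 in the WT line, which overlap. HBG1, encoding a fetal globin, was at 1764 to 3340 scaled FPKM in the K700E line and 1041 to 2121 in the WT line. Other erythroid markers reached higher in the WT line. In the same order EPOR was at 5.11 to 33.3 and 9.58 to 35.1 scaled FPKM. KLF1 was at 74.5 to 120 and 43.5 to 168, and TFRC at 58.8 to 70.4 and 44.0 to 98.0. The lines overlapped in every erythroid marker. Their part in the ALAS2 difference was not tested.

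**Figure D2:**
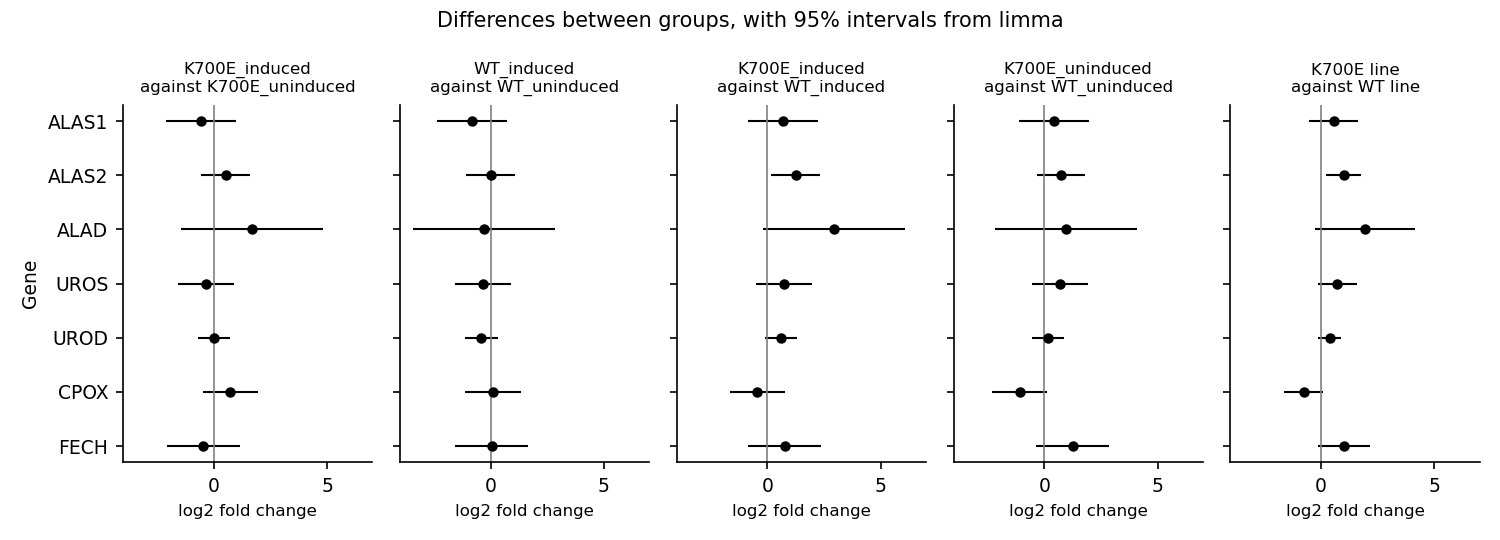
Log2 fold changes of the 7 enzyme genes (points) with 95% intervals from limma (lines), in 5 comparisons of the groups. ALAS2 has intervals that leave out 0 in K700E_induced against WT_induced and between the lines, before adjustment over all genes, and CPOX is the enzyme with a negative estimate in each comparison of the lines (0.16 between induced lines with reference transcripts only).

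The 2 synthases were listed with different forms in different libraries. ALAS2 has a reference transcript with the 111 nt exon printed above (NM_000032; hg19 chrX:55050190-55050300) and one without it (NM_001037967). Over all ALAS2 transcripts that span the exon, the share that holds it was 0 and 51.7% in K700E_induced, 16.9% and 0 in K700E_uninduced, 33.7% and 48.5% in WT_induced and 47.9% and 100% in WT_uninduced. The shares of the lines overlapped. The lowest WT-line share, 33.7% in WT_induced replicate 1, came only from an assembled form at 4.38 FPKM. Between lines, the log2 ratio of the reference form with the exon to the remainder of the gene differed by -3.70 (SE 2.21, limma adjusted p = 0.828). A 107 nt exon nearer the start (hg19 chrX:55054184-55054290) was held by 25.1% in K700E_induced replicate 2 and 33.7% in WT_induced replicate 1, in assembled transcripts, and by 0 in the other 6 libraries. The reference transcript NM_001037968 was listed at 0 in all 8 libraries. An assembled ALAS2 form at 16.2 FPKM in K700E_induced replicate 2 lacks a 223 nt exon (hg19 chrX:55047485-55047707). Another 2, partial or extended, assembled forms were listed in WT_induced replicate 1, at 4.60 and 4.38 FPKM.

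For ALAS1 the reference forms differ by a 177 nt exon near the start (hg19 chr3:52232688-52232864). The share with that exon was 0 and 35.6% in K700E_induced, 0 and 100% in K700E_uninduced, 0 and 100% in WT_induced and 0 and 0 in WT_uninduced. The values were 0 in 5 of the 8 libraries, and 1 library listed both forms. In K700E_induced replicate 1 both reference forms were at 0, and ALAS1 was carried by an assembled form at 6.44 FPKM that skips 6 exons in a row and one at 1.96 FPKM that lacks the end of the gene. With reference transcripts alone ALAS1 is at 0 in that library. Cufflinks shares reads between overlapping forms by estimation, so a form at 0 in 1 library and at 100% in the next is an estimated assignment, and the share is given without a binomial interval because read counts are not used here.

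**Figure D3:**
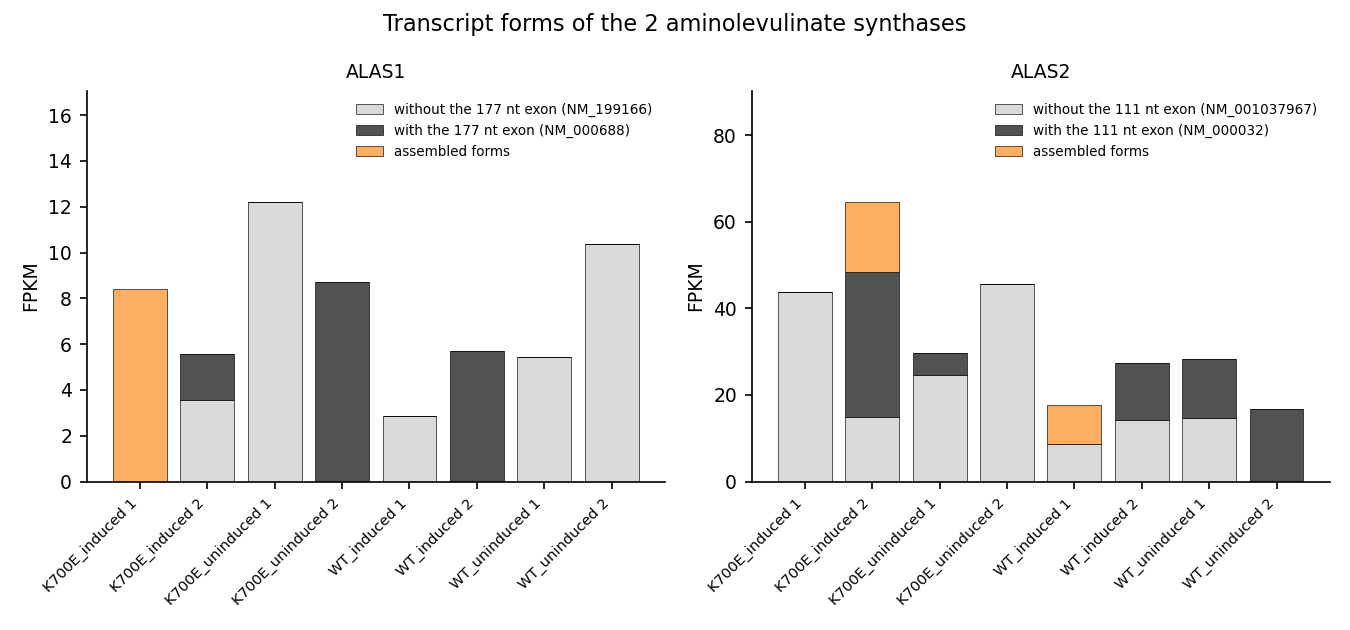
FPKM of the transcript forms of ALAS1 (left) and ALAS2 (right) in each library, stacked: light grey without and dark grey with the variable exon, orange for forms assembled in that library. For ALAS2 the reference form with the 111 nt exon is listed at 0 in K700E_induced replicate 1, K700E_uninduced replicate 2 and WT_induced replicate 1 and is the whole in WT_uninduced replicate 2.

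UROD has a second acceptor 50 nt upstream of the common one, at the end of its first intron, and its use adds the capitals of the UROD sequence above. Transcripts using it made up 33.8% of the UROD transcripts with this intron in K700E_induced replicate 1 (112.9 FPKM, as the noncoding reference record NR_036510) and 13.5% in WT_uninduced replicate 1 (33.5 FPKM, in an assembled form). The share was 0 in the other 6 libraries, among them K700E_induced replicate 2. For FECH, the donor 18 nt further downstream (NM_001012515) was used in 31.1% of transcripts with that intron in K700E_induced replicate 2, at 3.61 FPKM, and in 0 in the other 7. GENCODE v29 also holds a FECH transcript with an exon of 212 nt in place of 149 nt, 63 nt longer at its acceptor. Acceptor pairs under 100 nt apart were found in no listed FECH transcript.

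**Figure D4:**
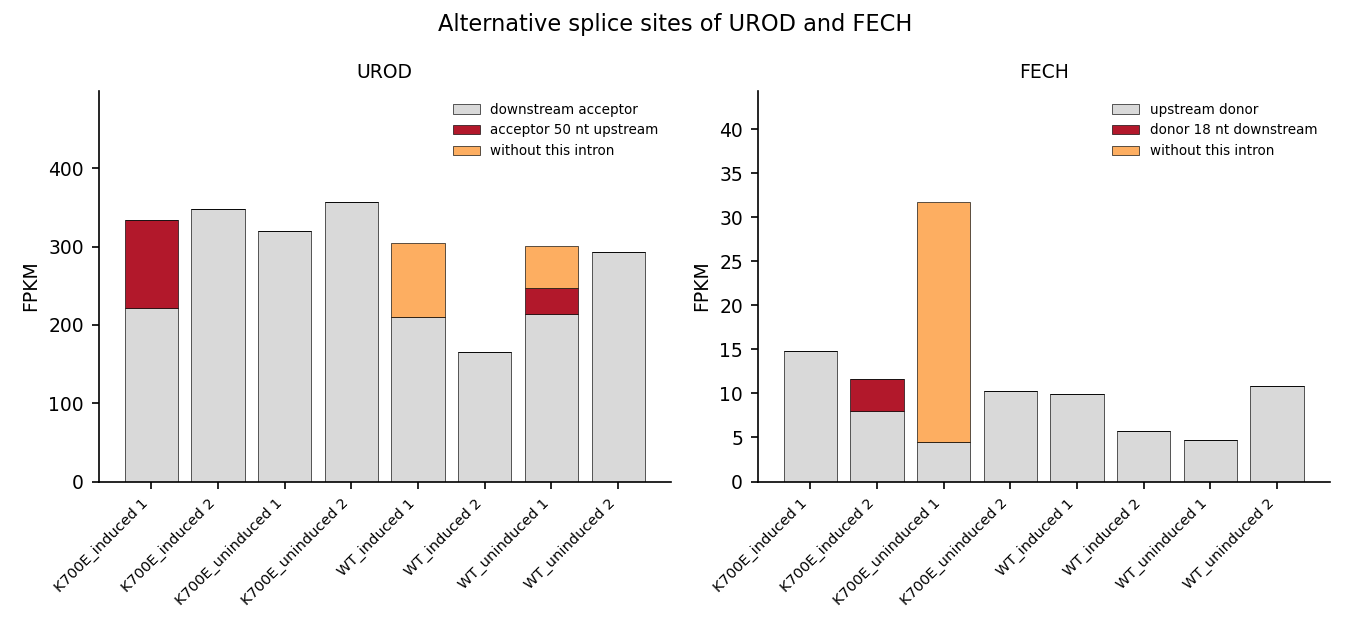
FPKM of UROD (left) and FECH (right) per library, split by the splice site used: grey for the common site, red for the alternative site, orange for assembled transcripts that do not contain the intron. The alternative site is listed in 2 of 8 libraries for UROD and in 1 of 8 for FECH.

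The other enzymes were listed mainly as their single reference transcript, with partial forms in some libraries. ALAD in K700E_induced replicate 2 was 11.7 FPKM of NM_000031 and 20.9 FPKM of an assembled partial form with 7 exons, so 64.2% of the high ALAD value there comes from that form. FECH in K700E_uninduced replicate 1 was 4.44 FPKM of NM_000140 and 27.3 FPKM of an assembled form with 8 exons. CPOX was split in WT_induced replicate 1 between NM_000097 (5.60 FPKM) and assembled ends at 8.54 and 9.52 FPKM, and in K700E_induced replicate 2 an assembled form took 42.3%. A UROS form lacking the end of the gene took 28.9% in WT_uninduced replicate 1. Assembled UROD forms took 43.0% in K700E_induced replicate 1, 31.0% in WT_induced replicate 1, and 11.1% and 17.9% in WT_uninduced replicate 1.

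Shares were tested over 24709 transcripts as the log2 ratio of each transcript to the remainder of the gene. Of these, 16 belong to the 7 enzymes, and 0 of 16 passed in any comparison, as did 0% of all transcripts in each of the 7. The smallest unadjusted p among 112 tests of these transcripts was 0.0554 (limma adjusted p 0.814 or more), so 0 were under 0.05. Over all transcripts between 920 and 994 had an unadjusted p under 0.05 in each comparison. On simulated shares for K700E_induced against K700E_uninduced the test called 0 of 50 transcripts moved by 8 log2 units, 21 of 50 moved by 12 and 47 of 50 moved by 16.

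Unspliced assembled transcripts inside the 7 genes numbered 3 and 13 in K700E_induced, 10 and 13 in K700E_uninduced, 15 and 4 in WT_induced and 8 and 4 in WT_uninduced. The groups overlapped, and these transcripts are not part of the levels.

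A list of 43 other genes of heme metabolism gave 40 tested genes, 0 of which passed in any comparison by limma. On K700E induction 22 were above 0 and 18 below (median 0.04), and 3 had an unadjusted p under 0.05, as did 533 of all 11364 genes. On WT induction 13 were above 0, where 50.4% of all genes were, and 27 below (median -0.12), with 1 under 0.05 (489 of all genes). In K700E_induced against WT_induced 25 were above 0 and 15 below (median 0.12), with 4 under 0.05 (595 of all genes). Between the lines 22 were above 0 and 18 below (median 0.07), with 4 under 0.05 (658 of all genes). The uninduced lines, the interaction and doxycycline had 1, 2 and 4 under 0.05, against 526, 484 and 520 of all genes. PPOX, the oxidase that acts between CPOX and FECH, was at 25.3 ± 3.77, 36.4 ± 24.2, 56.6 ± 4.41 and 25.3 ± 5.04 FPKM (SD, n = 2) in K700E_induced, K700E_uninduced, WT_induced and WT_uninduced.

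TMEM14C, a mitochondrial porphyrin carrier that is a known splicing target of mutant SF3B1, averaged 93.7 ± 23.1 FPKM (SD, n = 2) over the K700E_induced libraries and 83.0 ± 39.6 FPKM (SD, n = 2) over those of K700E_uninduced. Its log2 fold change on K700E induction was 0.24, which became -0.01 without K700E_induced replicate 1 and -0.30 without K700E_uninduced replicate 1. In the same order GATA1, the erythroid regulator of ALAS2, was at 299 ± 5.33 and 259 ± 39.7 FPKM (SD, n = 2; log2 fold change 0.22, SE 0.25, and -0.018 with reference transcripts only). SLC25A37, the mitochondrial iron importer, was at 157 ± 49.5 and 168 ± 82.8 FPKM (SD, n = 2; log2 fold change -0.04, and 0.52 without K700E_uninduced replicate 2).

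The other heme genes furthest from 0, at 0 in no library, are given with the log2 fold change, its SE and its range without any 1 library. On K700E induction, the highest were SLC25A28 (1.96, SE 1.35; 0.47 to 3.44) and HMOX2 (1.83, SE 0.47; 1.44 to 2.22), and the lowest SUCLG2 (-1.91, SE 1.02; -3.24 to -0.57) and COX15 (-1.65, SE 0.95; -2.304 to -1.001). On WT induction, the highest were PPOX (1.15, SE 0.52; 0.94 to 1.36) and ABCB6 (0.93, SE 1.03; 0.69 to 1.17), and the lowest SLC25A37 (-1.72, SE 0.41; -1.86 to -1.58) and SUCLG2 (-1.59, SE 1.02; -1.85 to -1.34). In K700E_induced against WT_induced, the highest were SLC25A37 (1.46, SE 0.41; 1.13 to 1.78) and CLPP (1.16, SE 0.57; 0.22 to 2.10), and the lowest BLVRA (-1.46, SE 0.69; -2.36 to -0.56) and PPOX (-1.16, SE 0.52; -1.30 to -1.01). In the uninduced lines, the highest were COX15 (1.32, SE 0.95; 0.67 to 1.97) and PGRMC2 (0.96, SE 0.60; 0.18 to 1.75), and the lowest HMOX2 (-2.38, SE 0.47; -2.45 to -2.32) and SLC25A28 (-1.64, SE 1.35; -3.12 to -0.15). For the interaction, the highest were HMOX2 (2.89, SE 0.66; 2.50 to 3.28) and SLC25A37 (1.68, SE 0.58; 1.12 to 2.24), and the lowest COX15 (-1.60, SE 1.35; -2.90 to -0.29) and PPOX (-1.50, SE 0.73; -2.26 to -0.74). Between lines, the highest were NRF1 (0.79, SE 0.68; 0.31 to 1.27) and PGRMC2 (0.67, SE 0.43; 0.28 to 1.07), and the lowest BLVRA (-1.06, SE 0.48; -1.51 to -0.60) and HMOX2 (-0.94, SE 0.33; -1.14 to -0.75). For doxycycline, the highest were SLC25A28 (1.22, SE 0.96; 0.48 to 1.97) and SUCLA2 (0.83, SE 0.58; 0.38 to 1.28), and the lowest SUCLG2 (-1.75, SE 0.72; -2.42 to -1.08) and BLVRA (-1.18, SE 0.48; -1.63 to -0.73). SLC25A28 was at 0.0301 FPKM in K700E_uninduced replicate 2. With reference transcripts only PPOX was at 0.22 and ABCB6 at -4.52 on WT induction, where SLC25A37 was at 2.90, and CLPP at -0.29 between induced lines. HMOX2 is a constitutive heme oxygenase and BLVRA a biliverdin reductase, both of heme breakdown.

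The genes whose pattern over the 8 libraries was most like that of each enzyme were picked as the 3 highest Pearson r among 7519 genes, so a high r is part of how they were chosen, and all values share the same 8 libraries. They were LARS (0.97), AHDC1 (0.92) and DUSP7 (0.92) for ALAS1, TSC22D2 (0.95), SARNP (0.95) and ZC3H7A (0.94) for ALAS2, and ZDHHC16 (0.94), SDE2 (0.94) and WDR36 (0.93) for ALAD. They were LOC100630923 (0.96), MPP1 (0.95) and CNIH4 (0.93) for UROS, GLTSCR1 (0.97), TRMT112 (0.97) and RSAD1 (0.96) for UROD, IRF2BPL (0.96), CLN6 (0.95) and ATG5 (0.95) for CPOX, and TAMM41 (0.93), PIGT (0.92) and TYW3 (0.91) for FECH. Spearman's rho ranged from 0.55 (CNIH4) to 0.98, and r without the 2 libraries furthest from the median ranged from 0.54 (CNIH4) to 0.96 (TYW3). No enzyme of the 7 was among the 3 most like another.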

How the data were processed

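The authors deposited, for each of the 8 libraries, a Cufflinks transcript list with FPKM per transcript (fragments per kilobase, scaled to the mapped total). The submitters' processing notes name CASAVA, TopHat, Cufflinks and the build hg19, with versions not given in the sources used here. RNA was extracted with Trizol and ribosomal RNA depleted, per the labels' protocols. Read counts are not used here, and coverage per FPKM was 3.29 to 4.77. Deposited intervals of the enzymes' transcripts had median half-widths of 5.13% (UROD) to 14.0% (ALAS1), an error within a library only.

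Transcripts were named from the lists (33291 of 40767 accessions), from a RefSeq gene table (7137) or by shared introns (261). Assembled spliced transcripts of 300 nt or more were added to the gene whose introns they share. Median-ratio factors from 7576 genes (0.979 to 1.03) scaled the libraries. Genes with a mean of 1 FPKM or more were fitted as log2(scaled FPKM + 0.5) with limma 3.58.1 (trend, 8 libraries, group means) in R 4.3.3. Fold changes on this scale understate those of low genes. Shares were fitted where a transcript averaged 5% to 95% of its gene. In simulated data for K700E_induced against K700E_uninduced over 11364 genes, limma called 9 of 50 genes moved by 2 log2 units, 36 of 50 moved by 4, and 11 of 11164 unmoved. Alternatives varied the pseudocount, filter, scaling, transcripts summed, libraries fitted and replicate number. Tables and figures used Python 3.11.15, pandas 2.3.3, numpy 2.4.6 and matplotlib 3.10.9.

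The genes and lists were chosen with earlier results of these data known. The text names the 7 enzymes, SF3B1, TMEM14C, GATA1, SLC25A37, per comparison the 2 highest and 2 lowest other heme genes above 0 in all libraries, and per enzyme the 3 genes most correlated with it. Some items this rule covers are not reported here.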

Additional observations from a re-analysis of the deposited data

How the results depend on the processing

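No enzyme passed the threshold under any alternative run. The line differences of ALAS2, ALAD, UROS, UROD, FECH and CPOX kept their sign under all of them (ALAS2 0.80 to 1.18, adjusted p 0.487 to 0.967; UROD 0.16 to 0.61; CPOX -1.01 to -0.46). Of 371 other alternative values for the enzymes 16 changed sign, 14 of them with reference transcripts only. Over 8772 genes, same-number deviations correlated between -0.04 and 0.10 for the pairs of groups. Some erythroid markers kept their replicate order within a line and others did not. HBZ was at 1404 and 2366 scaled FPKM in K700E_induced replicates 1 and 2, and 1463 and 2442 in K700E_uninduced. It was at 2168 and 876 in WT_induced, and 2456 and 916 in WT_uninduced. KLF1 had opposite orders in the induced and uninduced libraries of both lines. Whether the replicate numbers pair the libraries is not settled by these values. With the replicate block 2 genes passed between lines instead of 5, and the ALAS2 to ALAS1 difference was 0.44 (exact p = 0.5); no other count moved by over 1.5 times.

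Genes past the threshold without a filter numbered 28 on K700E induction, 13 on WT induction, 14 between induced lines, 25 between uninduced lines, 15 for the interaction, 20 between lines and 12 for doxycycline. With reference transcripts only they numbered 2, 9, 5 and 4 in the first 4 of these, 1 between lines and 1 for doxycycline. With a pseudocount of 0.1 they were 2 on K700E induction and 2 between lines, with a filter at 5 FPKM 2 between lines, and with only the groups compared 0 on WT induction. Leaving out 1 library gave 1 to 8, 0 to 11, 2 to 12, 0 to 6, 0 to 3, 0 to 4 and 0 to 3 genes in the same order. For transcript shares it gave 0 to 6 on K700E induction, 0 to 4 between induced and between uninduced lines and 0 to 1 for doxycycline, and for neighbouring levels 0 pairs each time. Where 1 library is left in a group, it is assumed to vary like the others.

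With reference transcripts only these log2 differences changed sign: ALAS1 -1.40 between induced lines, -1.82 for the interaction and -0.49 between lines; ALAS2 -0.48 on WT induction and -0.079 for doxycycline; UROS -0.24 for the interaction; UROD -0.39 on K700E induction; CPOX -0.88 on WT induction, 0.16 between induced lines and -0.26 for doxycycline. FECH became 0.90 on K700E induction, -0.091 between uninduced lines, 0.85 for the interaction and 0.47 for doxycycline. SLC25A37 became 2.90 on WT and 4.60 on K700E induction, ABCB6 -4.52 on WT induction, CLPP -0.29 between induced lines and GATA1 -0.018 on K700E induction. The UROS interaction was -0.0038 with a pseudocount of 1 and -0.0026 without scaling. The cause of these changes was not tested beyond the transcripts left out.

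Leaving out 1 library gave these ranges where the sign changed. On K700E induction they were -0.76 to 0.10 for UROS, -0.10 to 0.13 for UROD, -1.21 to 0.30 for FECH, -0.30 to 0.78 for TMEM14C and -0.60 to 0.52 for SLC25A37. On WT induction they were -0.37 to 0.40 for ALAS2, -1.96 to 1.41 for ALAD, -1.02 to 0.35 for UROS, -0.85 to 0.044 for UROD, -0.30 to 0.52 for CPOX and -0.50 to 0.60 for FECH. Between uninduced lines ALAS1 ranged from -0.010 to 0.85. For the interaction the ranges were -0.17 to 0.69 for ALAS1, -0.68 to 0.69 for UROS, -0.028 to 0.87 for UROD and -1.26 to 0.25 for FECH. For doxycycline they were -0.13 to 1.56 for ALAD, -0.68 to 0.0083 for UROS, -0.42 to 0.030 for UROD and -0.58 to 0.17 for FECH.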
